A study of Mus musculus with 9 samples.

Results

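The genes described here are 36 members of the actomyosin contractile apparatus and of the targets of serum response factor (SRF), chosen by gene name from a table of 35024 rows and measured in hepatic stellate cells, which are liver pericytes that hold vitamin A in lipid droplets. All 36 names were found in the table, and all 36 passed the filter on low values in both comparisons below. By role they fell into 14 smooth muscle genes, 12 widely expressed filament and motor genes, 9 widely expressed crosslinker and adhesion genes, and Srf itself. Values are given per gene name, so smooth muscle and other transcript forms of the same gene cannot be told apart. Bulk RNA sequencing had been done on 9 libraries of stellate cells that were sorted from liver by the autofluorescence of their retinoids and lysed directly. By label, the 4 YAP-deleted libraries (LYT006, LYT008, LYT013 and LYT016) came from LratCre+ YAP floxed mice. The 5 control libraries (LYT004, LYT005, LYT014, LYT015 and LYT017) were labelled as from YAP floxed mice, with no Cre named in their titles. All mice were on a C57BL/6J background and had received 6 injections of the hepatotoxin CCl4 at intervals of 3 days, with cells taken 2 days after the last one. The age of the mice and the floxed exon are not stated in the labels. The Lrat promoter drives Cre in stellate cells. Since no control library is labelled as carrying Cre, the presence of Cre and the loss of Yap1 cannot be told apart. Whether every library is a different mouse is not stated either, and p-values therefore measure the spread between libraries, some of which may be technical.

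Actomyosin filaments consist of actin cables pulled by bipolar myosin II, whose regulatory light chain is switched on by myosin light chain kinase. Tropomyosin, calponin, caldesmon and transgelin line the actin, while alpha-actinin, filamin, vinculin, talin and zyxin bundle it and couple it to adhesions. SRF binds a short DNA element, the CArG box, and is brought into action by myocardin and by the myocardin-related factors, which are released when monomeric actin is used up. In liver injury, stellate cells take on a contractile myofibroblast state that is commonly recognised by Acta2, and YAP, which acts through the TEAD factors, responds to the tension of the same cytoskeleton.

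Yap1, the deleted gene, went against the label in a pair of libraries, which are therefore shown apart throughout. In normalised counts (whole counts recovered from the deposited log2-like values, divided by a size factor per library), Yap1 stood at 642, 648 and 645 in YAP-deleted LYT006, LYT008 and LYT016 and at 2530 in the library labelled YAP-deleted LYT013. The control libraries LYT004, LYT005, LYT015 and LYT017 had 2902, 2915, 3653 and 3551, and the library labelled control LYT014 had 618. Results are given for the 7 libraries whose Yap1 level followed the label (3 YAP-deleted, 4 control) and for all 9 as labelled; no library was moved to the other group. Total counts ran from 14052502 (LYT017) to 31816055 (LYT013). All 9 stellate markers, Lrat and Des among them, were above 0 in every library, and their summed level ran from 521781 to 707451 normalised counts in YAP-deleted libraries and from 485292 to 684892 in control libraries. The 12 vascular mural markers summed to between 113853 and 192476 in YAP-deleted and between 113286 and 168899 in control libraries, with Pln and Higd1b under 3 counts everywhere. Macrophage markers summed to between 1004 and 2313 in YAP-deleted and between 697 and 1785 in control libraries, and 1 of the 10 had a difference below 0 in the 7 libraries. Endothelial markers summed highest in the libraries shown apart, at 4987 in LYT013 and 4604 in LYT014, against 2370 to 2735 in the other YAP-deleted and 1631 to 3621 in the other control libraries; their part in the values of LYT013 and LYT014 was not tested. The 12 portal fibroblast and mesothelial markers summed to 8726, 8918, 5197 and 3498 in YAP-deleted LYT006, LYT008, LYT016 and LYT013. In control LYT004, LYT005, LYT015, LYT017 and LYT014 they summed to 9622, 8539, 4743, 3812 and 6425. Of these markers 6 lay below 0 in the 7 libraries, and their part in the values of the members was not tested. The lymphocyte markers Cd3e, Cd3g, Nkg7 and Klrb1c stayed under 3 counts in each library. The 18 cell cycle genes differed most between libraries: their mean log2-like value was 7.16, 9.84, 6.85 and 6.88 in YAP-deleted LYT006, LYT008, LYT016 and LYT013, and 9.91, 10.3, 7.07, 6.90 and 8.59 in control LYT004, LYT005, LYT015, LYT017 and LYT014. All 18 had a difference below 0 in both sets of libraries and 0 passed the test.

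The promoters show where SRF and TEAD motifs stand relative to the genes described below. The RefSeq table for GRCm38.p6 held a start for 32 of the 36 members, Actg2, Myh11, Tagln and Actb being named only. In the 250 bases before the start, the CArG box was present in 7 of 32 members (21.9%), against 1.62% of 27025 genes, namely in Myl9, Actg1, Myl6, Cnn2, Vcl, Filip1l and Srf. The TEAD core GGAATG, read on both strands (CATTCC), was present in 12 of 32 (37.5%), against 14.4% of genes, and 7 of these were smooth muscle genes (Acta2, Mylk, Tpm1, Cald1, Lmod1, Smtn and Flnc). Vcl alone held both motifs, and they did not overlap. CArG boxes were searched in their strict form with no mismatch, so elements that depart from it by a letter, in Acta2 among others, stay in lower case. A match is a description of letters and not a measured binding site, and its absence says only that the strict form is not in this window. The list was drawn up to include SRF targets beside contractile genes, so the CArG share is not independent of how the members were chosen. The sequences of Acta2, the usual marker of the myofibroblast state, of Myl9, Vcl and Filip1l, which separated the groups below and hold a CArG box, and of Srf, which holds 2 of them, run 5′ to 3′ on the strand of the gene, with CArG boxes and TEAD cores in capitals. Actg1, Myl6 and Cnn2 also hold a CArG box but overlapped between the groups, while Cald1 separated the 7 libraries without a strict one. A gene with several RefSeq starts was counted if any of them held the motif. For Filip1l the downstream RefSeq start is shown, and the upstream start (chr16:57353027-57353276) holds neither motif.

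Acta2 (chr19:34255374-34255623, minus strand): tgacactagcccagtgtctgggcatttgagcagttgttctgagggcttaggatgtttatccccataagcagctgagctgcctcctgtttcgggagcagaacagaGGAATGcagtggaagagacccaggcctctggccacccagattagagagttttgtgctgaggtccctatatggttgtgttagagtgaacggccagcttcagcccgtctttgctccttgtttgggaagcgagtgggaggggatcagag

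Myl9 (chr2:156775214-156775463, plus strand): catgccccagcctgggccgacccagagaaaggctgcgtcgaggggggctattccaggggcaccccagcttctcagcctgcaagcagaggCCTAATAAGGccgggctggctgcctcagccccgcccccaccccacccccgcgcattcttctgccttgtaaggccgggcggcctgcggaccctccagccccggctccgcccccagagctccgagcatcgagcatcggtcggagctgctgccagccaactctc

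Vcl (chr14:20929148-20929397, plus strand): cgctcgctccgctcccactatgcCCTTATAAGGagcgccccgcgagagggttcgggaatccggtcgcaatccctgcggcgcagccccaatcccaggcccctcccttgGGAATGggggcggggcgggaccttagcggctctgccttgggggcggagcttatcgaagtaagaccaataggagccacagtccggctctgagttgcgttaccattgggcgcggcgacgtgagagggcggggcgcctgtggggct

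Filip1l (chr16:57548992-57549241, plus strand): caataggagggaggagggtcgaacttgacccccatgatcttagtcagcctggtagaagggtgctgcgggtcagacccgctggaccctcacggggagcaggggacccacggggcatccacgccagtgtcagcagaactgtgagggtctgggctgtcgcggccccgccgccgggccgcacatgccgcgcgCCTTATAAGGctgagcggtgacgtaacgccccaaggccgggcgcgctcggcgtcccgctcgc

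Srf (chr17:46556163-46556412, minus strand): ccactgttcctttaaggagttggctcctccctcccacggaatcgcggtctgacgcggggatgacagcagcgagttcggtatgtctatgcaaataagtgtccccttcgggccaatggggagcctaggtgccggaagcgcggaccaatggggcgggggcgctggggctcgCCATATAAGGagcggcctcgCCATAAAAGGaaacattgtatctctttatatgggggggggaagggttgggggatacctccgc

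No member passed the test between YAP-deleted and control cells. Most smooth muscle genes had differences below 0 without passing, furthest for Acta2, Myl9 and Tagln in the 7 libraries and for Acta2 and Flnc in the 9. In the 7 libraries, 13 of 14 smooth muscle genes had a difference below 0, with a median of −0.43 log2-like units, and 17 of 21 widely expressed genes did so, with a median of −0.10; over all 17296 genes tested the median was −0.01 and 51.6% lay below 0. With all 9 libraries as labelled, 12 of 14 smooth muscle genes (median −0.30) and 10 of 21 widely expressed genes (median 0.02) lay below 0, against 50.9% of 17203 genes with a median of −0.00453. No test was made of the difference between the groups of genes. The smooth muscle group is made of genes and not of isoforms. It holds both Cnn1, at 0 to 12.8 normalised counts, and Cald1, at 12188 to 21374. The sign of the widely expressed median in the 9 libraries depended on the setting, between −0.19 and 0.08.

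In the 7 libraries limma (two-sided, Benjamini-Hochberg adjustment over all genes) called 9 genes lower (0.052%) and 3 higher (0.0173%), 0.0694% in all. Yap1 is 1 of the 9, and since its level set the choice of these libraries, its call is no independent result. Of the 36 members 0 were called, and their limma adjusted p-values ran from 0.391 for Myl9 to 0.995 for Cnn3. At an unadjusted p under 0.05, 9 members were lower in YAP-deleted libraries (background 3.04%) and 0 higher (3.27%). All YAP-deleted values lay below all control values for 6 members, Actg2, Myl9, Tagln, Cald1, Vcl and Filip1l (background 3.46%), and above them for 0 (3.86%). In the 9 libraries limma called 0 genes (0%) and 0 members, with 1242 genes at an unadjusted p under 0.05, and limma voom on the recovered counts called 0 with 1319. There 5 members were lower at an unadjusted p under 0.05 (3.69%) and 1, Zyx, higher (3.53%), and Actg2 and Vcl kept the groups apart (1.15% of genes lower, 1.69% higher). In bulk RNA, fewer cells with a transcript and less of it per cell cannot be told apart.

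**Figure D1:**
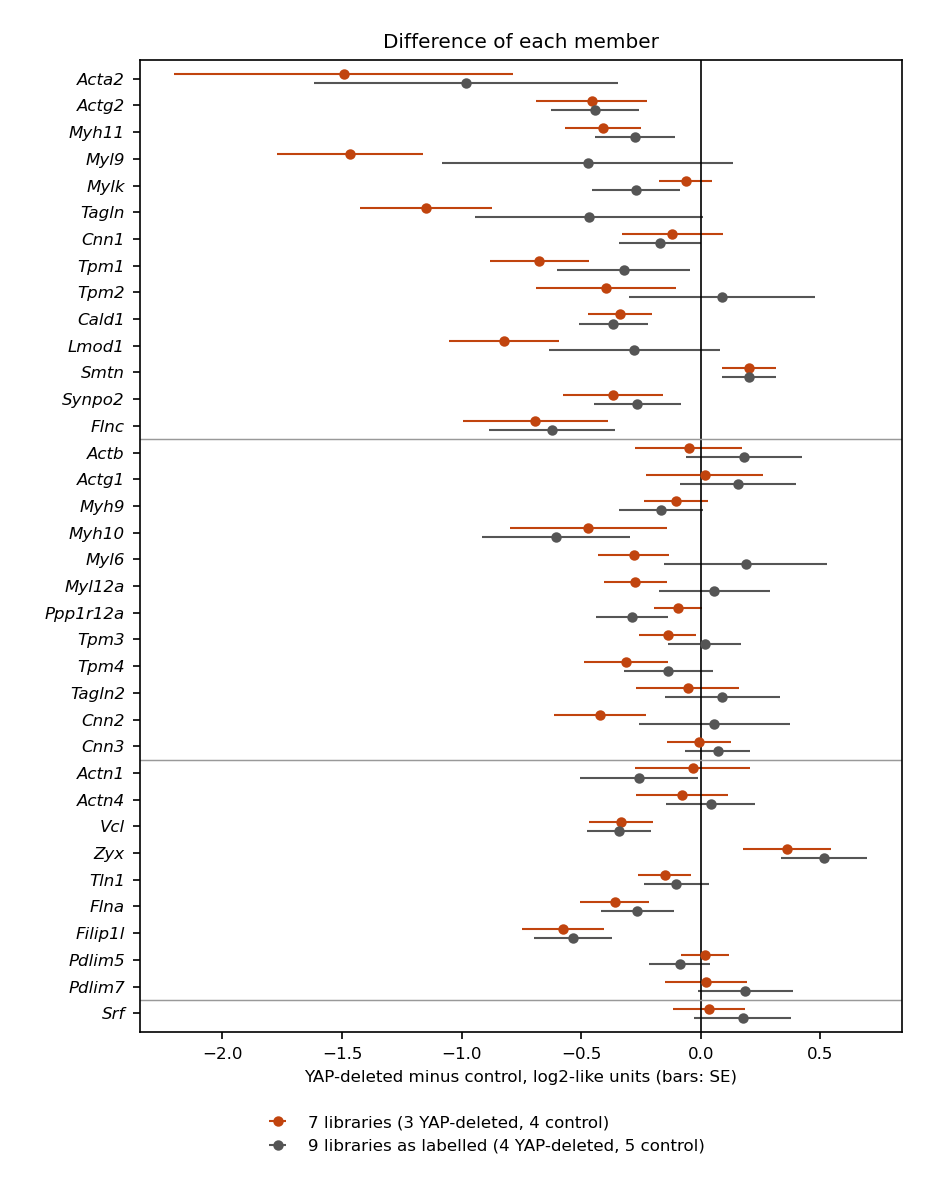
Difference of each of the 36 members, YAP-deleted minus control, in log2-like units with its SE, in the 7 libraries whose Yap1 level followed the label (orange, 3 against 4) and in all 9 as labelled (grey, 4 against 5). Horizontal lines part smooth muscle, filament and motor, crosslinker and adhesion genes, and Srf. The furthest left are Acta2, Myl9 and Tagln in the 7 libraries, and the furthest right is Zyx in the 9.

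Among smooth muscle actins, Acta2 (chromosome 19, 34241090 to 34255590 on GRCm38, minus strand) varied widely within both groups. Its normalised counts were 498, 2181 and 430.5 in YAP-deleted LYT006, LYT008 and LYT016 and 2798 in LYT013, against 4414, 4899.9, 789 and 1679 in control LYT004, LYT005, LYT015 and LYT017 and 1781 in LYT014. The 2 lowest values were YAP-deleted and the 2 highest control, but LYT008 lay above LYT015 and LYT017, and the groups overlapped. The difference was −1.49 ± 0.71 log2-like units in the 7 libraries (SE, limma adjusted p = 0.783) and −0.98 ± 0.64 in the 9 (adjusted p = 0.653). Of the 4 libraries with the highest Acta2, LYT004, LYT005 and LYT008 also had the highest cell cycle means, whereas LYT013, above LYT008 for Acta2, had one of the lowest. With that mean as a covariate the difference was −1.10 ± 0.22 in the 7 libraries and −0.51 ± 0.50 in the 9 (limma adjusted p = 0.104 and 0.736). Within library codes 4 to 8 it was −2.07 ± 0.62, and within codes 13 to 17 it was −1.31 ± 0.76 in the 7 libraries and −0.24 ± 0.75 in the 9.

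Actg2, the enteric smooth muscle actin, was close to its detection limit, with 4.61, 12.8 and 9.18 normalised counts in YAP-deleted LYT006, LYT008 and LYT016 and 10.8 in LYT013, against 17, 58.9, 13.2 and 14.8 in control LYT004, LYT005, LYT015 and LYT017 and 24.9 in LYT014. Every YAP-deleted library lay below every control library, including LYT013 and LYT014, although LYT008 and LYT015 were within 1 count of each other. The difference was −0.44 ± 0.19 in the 9 libraries and −0.45 ± 0.23 in the 7 (limma adjusted p = 0.649 and 0.783).

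The smooth muscle light chain Myl9 (chromosome 2, 156775420 to 156781658, plus strand), through which phosphorylation turns on myosin II, had 657, 1629 and 914 normalised counts in YAP-deleted LYT006, LYT008 and LYT016 and 2411, 3437, 2082 and 3900.5 in control LYT004, LYT005, LYT015 and LYT017. These groups did not overlap, with means of 1067 ± 503 in YAP-deleted and 2957 ± 853 in control libraries (SD, n = 3 and 4) and a difference of −1.47 ± 0.30 (SE, limma adjusted p = 0.391). The libraries shown apart turned this round: LYT013, labelled YAP-deleted, had 7320.2 counts, the highest of all 9, and LYT014, labelled control, had 995, within the YAP-deleted range. With them the difference was −0.47 ± 0.61 (adjusted p = 0.791). Within codes 13 to 17 it was −1.58 ± 0.54 in the 7 libraries and 0.37 ± 0.80 in the 9.

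Tagln (transgelin, an actin-bundling calponin relative; chromosome 9, 45929619 to 45936058, minus strand) had 2978, 5419 and 3559.9 normalised counts in YAP-deleted LYT006, LYT008 and LYT016, against 8516, 11191, 5483 and 10608 in control LYT004, LYT005, LYT015 and LYT017. The groups were apart, LYT008 and LYT015 being their nearest values. LYT013 again stood above every library at 20124, while LYT014, at 6298, stayed within the control range. The difference was −1.15 ± 0.28 in the 7 libraries (limma adjusted p = 0.520) and −0.47 ± 0.48 in the 9 (0.748). Of the 31-base words in the Tagln transcripts 62.2% also occur in other genes, mostly in Gm48529, which may limit how far Tagln counts can be assigned. Gm48529 is not among the gene names with deposited values, so its own level is not known.

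**Figure D2:**
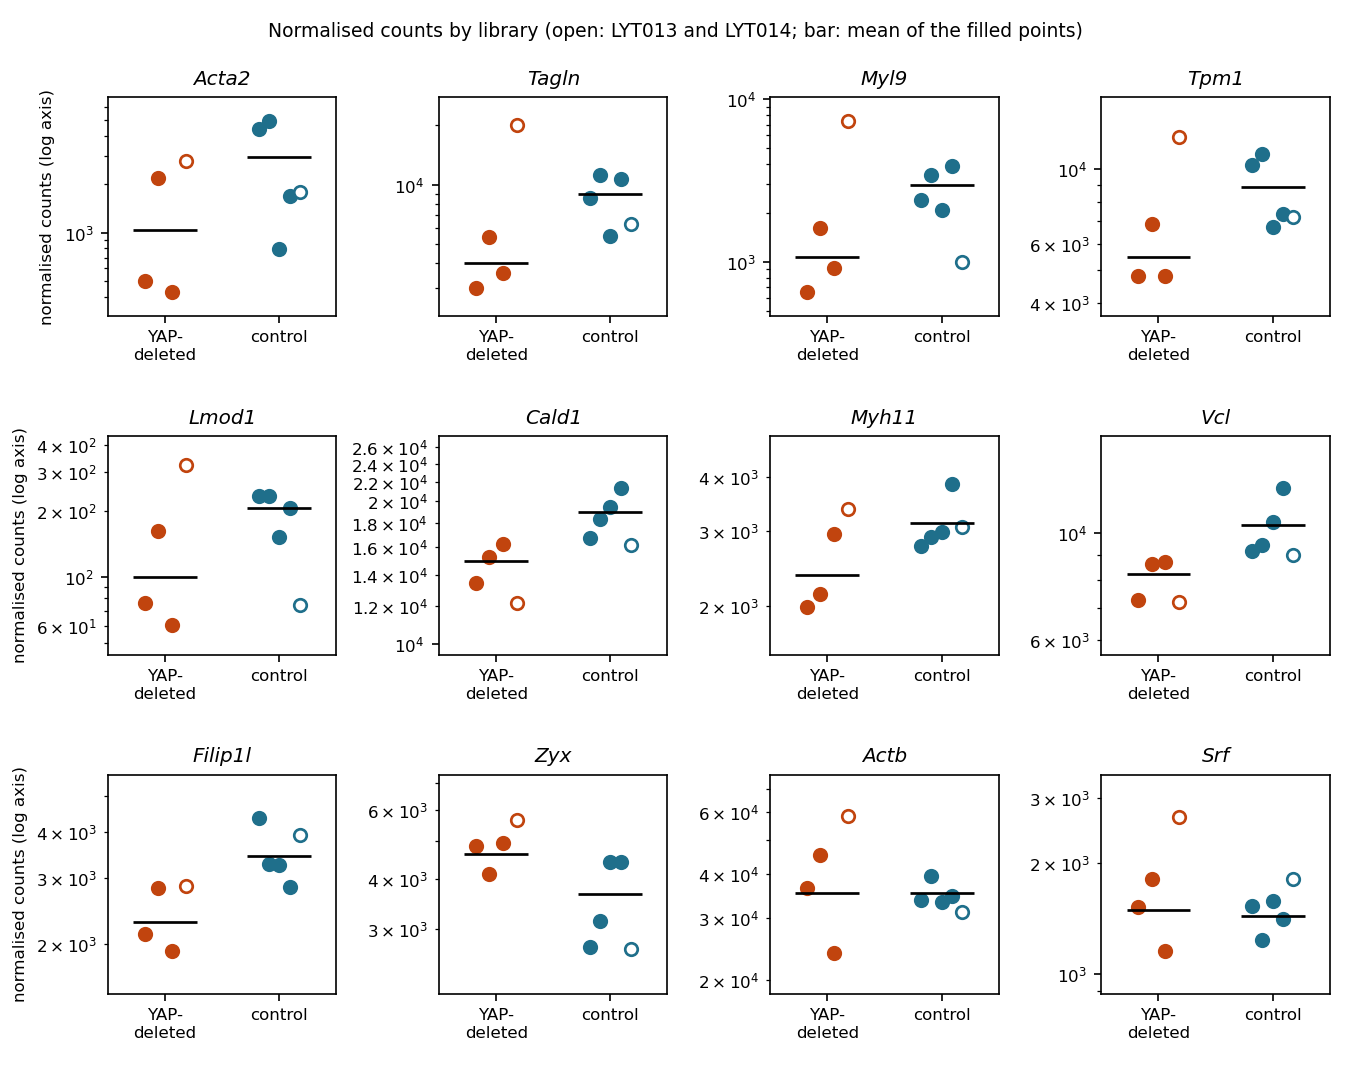
Normalised counts of 12 genes in every library on log axes, YAP-deleted left and control right; filled points are the 7 libraries whose Yap1 level followed the label, open points LYT013 and LYT014, and bars the mean of the filled points. For Myl9 the filled groups are apart, at 657 to 1629 in YAP-deleted and 2082 to 3900.5 in control libraries, while the open points lie at 7320.2 (LYT013) and 995 (LYT014).

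The smooth muscle myosin heavy chain Myh11 (chromosome 16) had 1987, 2133 and 2950.1 normalised counts in YAP-deleted LYT006, LYT008 and LYT016 and 3366 in LYT013, against 2767, 2903, 2984 and 3860.2 in control LYT004, LYT005, LYT015 and LYT017 and 3062 in LYT014. LYT016 lay among the controls and the groups overlapped, with a difference of −0.41 ± 0.16 in the 7 libraries (limma adjusted p = 0.756). Mylk, the kinase that phosphorylates the light chain, was nearly level outside LYT013, at 18045 to 18949 in the other YAP-deleted libraries against 18213 to 20486 in control libraries. LYT013 had 10438.

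Caldesmon and leiomodin followed the same direction as the light chain. Cald1, which inhibits myosin on actin (chromosome 6), had 13444, 15250.4 and 16277 normalised counts in YAP-deleted LYT006, LYT008 and LYT016 and 12188 in LYT013, against 16768, 18313, 19476 and 21374 in control LYT004, LYT005, LYT015 and LYT017 and 16157 in LYT014. The 7 libraries were apart, and in the 9 the overlap came from LYT014 and LYT016. The difference was −0.34 ± 0.13 in the 7 libraries and −0.37 ± 0.14 in the 9 (limma adjusted p = 0.756 and 0.649). Lmod1, a leiomodin that nucleates actin filaments in smooth muscle (chromosome 1), had 76.1, 162 and 60.1 counts in YAP-deleted LYT006, LYT008 and LYT016 and 323 in LYT013, against 233, 234, 152 and 207 in control LYT004, LYT005, LYT015 and LYT017 and 74.6 in LYT014. LYT008 and LYT015 overlapped, and the libraries shown apart again sat on the side of the other label. The difference was −0.82 ± 0.23 in the 7 libraries (limma adjusted p = 0.592) and −0.28 ± 0.36 in the 9 (0.791).

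Of the tropomyosins with smooth muscle forms, Tpm1 (chromosome 9) had 4802, 6853 and 4825 normalised counts in YAP-deleted LYT006, LYT008 and LYT016 and 12493 in LYT013, against 10318, 11107, 6742 and 7354 in control LYT004, LYT005, LYT015 and LYT017 and 7205 in LYT014. LYT008 and LYT015 were the overlapping values. The difference was −0.67 ± 0.21 (limma adjusted p = 0.621) in the 7 libraries. Tpm1 was the 1 member that passed under any alternative setting: with the cell cycle mean as a covariate, in the 7 libraries, it differed by −0.56 ± 0.08 (limma adjusted p = 0.027), where 25 of 17296 genes (0.145%) were called lower and 11 higher. In the 9 libraries it differed by −0.32 ± 0.28, and with that covariate by −0.22 ± 0.28. Tpm2 had 1063, 2271 and 1229.8 counts in YAP-deleted LYT006, LYT008 and LYT016 and 4999 in LYT013, against 1764, 2798, 1323 and 2039 in control LYT004, LYT005, LYT015 and LYT017 and 1633 in LYT014. The groups overlapped, and the difference was −0.39 ± 0.29 in the 7 libraries and 0.09 ± 0.39 in the 9, where LYT013 was the highest library.

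The remaining smooth muscle genes were low or level. Cnn1, the smooth muscle calponin, had 0, 7.65 and 1.67 normalised counts in YAP-deleted LYT006, LYT008 and LYT016 and 1.80 in LYT013, against 12.8, 2.45, 0.94 and 1.34 in control LYT004, LYT005, LYT015 and LYT017 and 8.02 in LYT014, so it was barely detected in either group. Flnc, the muscle filamin, had 64.6, 94.4 and 61.7 counts in YAP-deleted LYT006, LYT008 and LYT016 and 61.6 in LYT013, against 265, 207, 78.2 and 99.4 in control LYT004, LYT005, LYT015 and LYT017 and 87.5 in LYT014. LYT004 and LYT005 stood highest and LYT008 overlapped the controls, with a difference of −0.69 ± 0.30 in the 7 libraries (limma adjusted p = 0.783). Smtn, the actin-associated smoothelin, was the smooth muscle gene above 0 in both sets of libraries, with 7655, 8881 and 7380.1 counts in YAP-deleted LYT006, LYT008 and LYT016 and 7912 in LYT013, against 6310.4, 7763, 6498 and 7135 in control LYT004, LYT005, LYT015 and LYT017 and 6856 in LYT014. The groups overlapped and the difference was 0.20 ± 0.11 in both sets of libraries (limma adjusted p = 0.813 in the 7 and 0.649 in the 9). Synpo2, an actin-bundling partner of filamin, differed by −0.37 ± 0.21 in the 7 libraries.

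**Figure D3:**
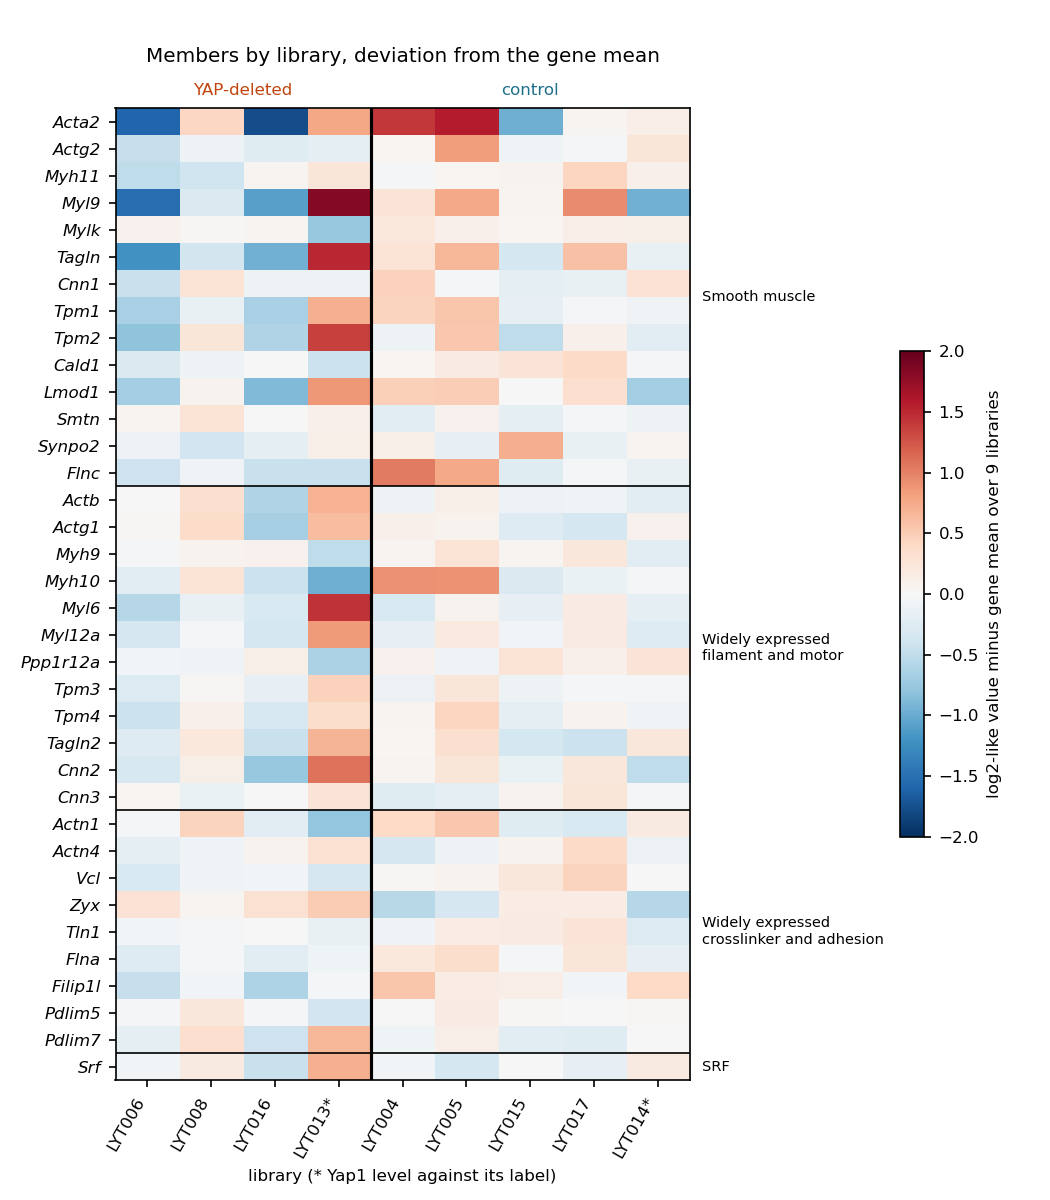
Deviation of each member from its mean over the 9 libraries, in log2-like units (red higher, blue lower), with YAP-deleted libraries left of control libraries and asterisks on LYT013 and LYT014. LYT006 and LYT016 hold the lowest value of 11 and 10 members, and LYT013 the highest of 16 and the lowest of 9.

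The cytoplasmic actins overlapped between the groups. Actb, which builds the bulk of the actin network, had 36477, 45282 and 23859.9 normalised counts in YAP-deleted LYT006, LYT008 and LYT016 and 58618 in LYT013, against 33839, 39395, 33390.3 and 34644 in control LYT004, LYT005, LYT015 and LYT017 and 31098 in LYT014. The control libraries stood close together within the wide YAP-deleted range, and the difference was −0.05 ± 0.22 in the 7 libraries and 0.18 ± 0.24 in the 9. Actg1, the other cytoplasmic actin, had 17975, 22869 and 11124 counts in YAP-deleted LYT006, LYT008 and LYT016 and 27339 in LYT013, against 19007, 18661, 14820.4 and 13821 in control LYT004, LYT005, LYT015 and LYT017 and 18817 in LYT014. It shared the low value of LYT016 with Actb, and its difference was 0.02 ± 0.24 in the 7 libraries (limma adjusted p = 0.994).

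Non-muscle myosin II showed no separation either. Myh9, the heavy chain of myosin IIA, had 23590.4, 25382 and 25494 normalised counts in YAP-deleted LYT006, LYT008 and LYT016 and 16939.9 in LYT013, against 24860.3, 29036, 24872 and 28160.4 in control LYT004, LYT005, LYT015 and LYT017 and 20603 in LYT014. Myh10, of myosin IIB, had 2258, 3156 and 1917 counts in YAP-deleted LYT006, LYT008 and LYT016 and 1304 in LYT013, against 4982, 4907, 2118 and 2377 in control LYT004, LYT005, LYT015 and LYT017 and 2538 in LYT014. Myh10 was high in the control libraries LYT004 and LYT005, 2 of the 3 with the highest cell cycle means, and its difference of −0.47 ± 0.33 (7 libraries, limma adjusted p = 0.869) overlapped between the groups.

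The essential light chain Myl6 had 4702, 6344 and 5712 normalised counts in YAP-deleted LYT006, LYT008 and LYT016 and 19199 in LYT013, against 5669, 7379.9, 6284 and 7891 in control LYT004, LYT005, LYT015 and LYT017 and 6212 in LYT014. The non-muscle regulatory light chain Myl12a had 5700.4, 7066 and 5616 counts in YAP-deleted LYT006, LYT008 and LYT016 and 12984 in LYT013, against 6408, 8256, 6903 and 8099 in control LYT004, LYT005, LYT015 and LYT017 and 5995 in LYT014. Both overlapped between the groups, and both changed sign when LYT013 and LYT014 were kept: Myl6 differed by −0.28 ± 0.15 in the 7 libraries and 0.19 ± 0.34 in the 9, and Myl12a by −0.27 ± 0.13 and 0.06 ± 0.23. Ppp1r12a, the targeting subunit of myosin phosphatase, had 1999.7, 1981 and 2273 counts in YAP-deleted LYT006, LYT008 and LYT016 and 1316 in LYT013, against 2205, 1981, 2523 and 2240.4 in control LYT004, LYT005, LYT015 and LYT017 and 2501 in LYT014, LYT013 being the low one.

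Tpm4, a cytoskeletal tropomyosin, had 6959.7, 10134 and 7542 normalised counts in YAP-deleted LYT006, LYT008 and LYT016 and 12059.8 in LYT013, against 9825, 12669.7, 8307 and 9926 in control LYT004, LYT005, LYT015 and LYT017 and 8979 in LYT014. Cnn2, the calponin of non-muscle cells, had 1827, 2513 and 1336 counts in YAP-deleted LYT006, LYT008 and LYT016 and 4989.6 in LYT013, against 2404, 2728, 2105 and 2705 in control LYT004, LYT005, LYT015 and LYT017 and 1599 in LYT014. Both overlapped, and Cnn2 changed sign between the 7 libraries (−0.42 ± 0.19) and the 9 (0.06 ± 0.32). Tpm3, Tagln2 and Cnn3, widely expressed forms of tropomyosin, transgelin and calponin, differed by −0.14 ± 0.12, −0.05 ± 0.22 and −0.01 ± 0.14 in the 7 libraries.

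Among crosslinkers and adhesion genes, Vcl and Filip1l were the members that separated. Vcl (chromosome 14, 20929398 to 21033676, plus strand) encodes vinculin, which ties talin to actin and whose promoter above holds both motifs. It had 7268, 8640.0 and 8702 normalised counts in YAP-deleted LYT006, LYT008 and LYT016 and 7177 in LYT013, against 9159, 9459, 10548 and 12374 in control LYT004, LYT005, LYT015 and LYT017 and 9016 in LYT014. All 4 YAP-deleted libraries lay below all 5 control libraries, with a difference of −0.34 ± 0.13 in the 9 and −0.33 ± 0.13 in the 7 (SE, limma adjusted p = 0.649 and 0.757). Of the 31-base words of Vcl, 25.3% also occur in Ap3m1. Filip1l, related to a filamin-interacting protein (chromosome 16, 57353093 to 57573126, plus strand), had 2123, 2834 and 1909.7 counts in YAP-deleted LYT006, LYT008 and LYT016 and 2866 in LYT013, against 4382, 3274, 3264 and 2847 in control LYT004, LYT005, LYT015 and LYT017 and 3921 in LYT014. The 7 libraries were apart by the small step between LYT008 and LYT017, and LYT013 lay just above LYT017. Its difference was −0.58 ± 0.17 in the 7 libraries and −0.53 ± 0.16 in the 9 (limma adjusted p = 0.592 and 0.649).

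Zyx, the tension-sensitive adhesion protein zyxin, was the member furthest on the higher side, with 4862, 4127 and 4943 normalised counts in YAP-deleted LYT006, LYT008 and LYT016 and 5667 in LYT013, against 2697, 3144, 4434 and 4427 in control LYT004, LYT005, LYT015 and LYT017 and 2665 in LYT014. LYT008 lay below LYT015 and LYT017, so the groups overlapped. The difference was 0.52 ± 0.18 in the 9 libraries and 0.36 ± 0.18 in the 7 (limma adjusted p = 0.649 and 0.783). Flna, the main actin crosslinker of the filamins, had 18296, 21601 and 18748 counts in YAP-deleted LYT006, LYT008 and LYT016 and 20685 in LYT013, against 25494, 27924, 21388 and 25809 in control LYT004, LYT005, LYT015 and LYT017 and 19459.6 in LYT014. The only overlap among the 7 libraries was LYT008 above LYT015, and the difference there was −0.36 ± 0.14 (limma adjusted p = 0.756). The alpha-actinins Actn1 and Actn4, talin (Tln1) and the scaffolds Pdlim5 and Pdlim7 differed by −0.03 ± 0.24, −0.08 ± 0.19, −0.15 ± 0.11, 0.02 ± 0.10 and 0.02 ± 0.17 in the 7 libraries.

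Srf (chromosome 17, 46548329 to 46556175, minus strand), whose promoter above holds 2 CArG boxes, had 1521, 1805 and 1154 normalised counts in YAP-deleted LYT006, LYT008 and LYT016 and 2654 in LYT013, against 1532, 1240.0, 1581 and 1408 in control LYT004, LYT005, LYT015 and LYT017 and 1812 in LYT014. The YAP-deleted range enclosed the control range of the 7 libraries, and the difference was 0.03 ± 0.15 (limma adjusted p = 0.979). Of 10 SRF cofactors and their partners, 0 passed the test in either set of libraries. The myocardin-related factors Mrtfa and Mrtfb differed by 0.08 ± 0.11 and −0.14 ± 0.11 in the 7 libraries, and Myocd, the smooth muscle cofactor, had between 0 and 3.46 normalised counts in YAP-deleted and between 0 and 4.91 in control libraries.

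Of 27 further filament and adhesion genes tested (Actc1 was too low to test), 0 passed in either set of libraries. In the 7 libraries 13 lay below 0, with a median difference of 0.01 log2-like units, and in the 9 libraries 14 did, with a median of −0.03. Ldb3, a scaffold of the muscle Z-disc, was the 1 gene of these 27 for which every YAP-deleted library lay below every control library in both sets. Over all genes, 3.46% lay so in the 7 libraries and 1.15% in the 9, so nothing about the list is read from it. It had 5.77, 8.93 and 12.5 normalised counts in YAP-deleted LYT006, LYT008 and LYT016 and 12.6 in LYT013, against 22.4, 15.9, 15.1 and 20.1 in control LYT004, LYT005, LYT015 and LYT017 and 17.7 in LYT014. The counts were low throughout, and the difference was −0.32 ± 0.12 in the 7 libraries and −0.28 ± 0.10 in the 9 (limma adjusted p = 0.739 and 0.649).

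Of the mural cell markers, Notch3 and Itga7 separated the 7 libraries, with all YAP-deleted values below all control values. Over all genes 3.46% lay so, and nothing about the marker list is read from these genes. The receptor Notch3 had 631, 1464 and 1199.7 normalised counts in YAP-deleted LYT006, LYT008 and LYT016 and 2048 in LYT013, against 2705, 2712, 2258 and 3017 in control LYT004, LYT005, LYT015 and LYT017 and 1075 in LYT014. The integrin Itga7 had 16.1, 38.3 and 47.6 counts in YAP-deleted LYT006, LYT008 and LYT016 and 171 in LYT013, against 76.7, 88.3, 118 and 132 in control LYT004, LYT005, LYT015 and LYT017 and 26.5 in LYT014. For both genes the 7 libraries were apart, and LYT014 lay within the YAP-deleted range. LYT013 lay above all controls for Itga7, as for Myl9, but between the groups for Notch3. The mural marker Rgs5, with 67668.5 to 121676 normalised counts, went the other way. It differed by 0.20 ± 0.26 in the 7 libraries and 0.08 ± 0.23 in the 9. Of the 10 mural markers tested in the 7 libraries, 6 lay below 0 and 0 passed, and their part in the Myl9 and Tagln values was not tested.

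The share of each member gene within its family was computed in every library after dividing normalised counts by the length of the longest coding transcript. Acta2 made up 0.86%, 2.95% and 1.15% of the 4 actins in YAP-deleted LYT006, LYT008 and LYT016 and 2.99% in LYT013, against 7.34%, 7.40%, 1.53% and 3.18% in control LYT004, LYT005, LYT015 and LYT017 and 3.27% in LYT014. Smooth muscle actin was thus a small part of the actin transcripts in every library. Tagln averaged 39.7 ± 4.02% of the transgelins in the 3 YAP-deleted and 58.5 ± 7.15% in the 4 control libraries (SD), with no overlap, and stood at 65.6% in LYT013 and 45.1% in LYT014. Myl9 averaged 12.3 ± 3.61% of the 3 light chains in the YAP-deleted and 24.5 ± 3.34% in the control libraries, also with no overlap, with 26.3% in LYT013 and 11.5% in LYT014. These 3 are Myl9, Myl12a and Myl6. A further light chain gene, Myl12b, with 2521 (LYT006) to 5561 (LYT013) normalised counts, is not a member and was left out.

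Tpm1 took 22.4% to 23.9% of the tropomyosins in the 3 YAP-deleted libraries, below the 25.5% to 33.3% in the 4 control libraries, with 29.1% in LYT013 and 26.8% in LYT014. Myh9 led the heavy chains, with 82.4% to 84.3% in the 3 YAP-deleted and 75.9% to 82.1% in the 4 control libraries and with 77.0% in LYT013 and 77.7% in LYT014, while Myh11 overlapped and depended on the length used, its share over the 9 libraries being 7.86% to 17.4% with the longest transcript and 0.81% to 1.90% with the median length. Cnn1 stayed at or below 0.12% of the calponins. The separations of Myl9 and Tpm1 in the 7 libraries held with the median transcript length too. That of Tagln could not change, since in a family of 2 genes the length used leaves the order of the libraries as it is.

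**Figure D4:**
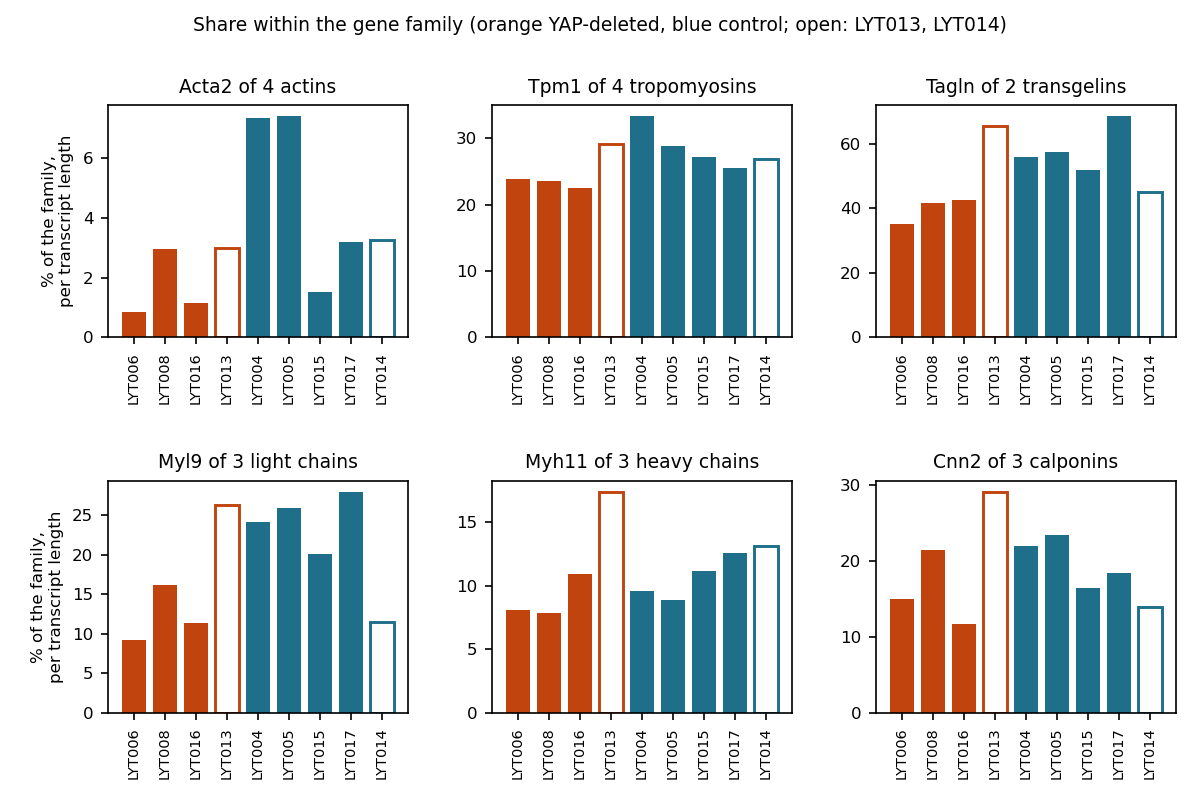
Share of 6 members within their families, in percent of length-normalised counts, in every library (orange YAP-deleted, blue control, open bars LYT013 and LYT014). Tagln, Myl9 and Tpm1 are lower in the filled orange bars than in any filled blue bar, and the open bars of Myl9 show 26.3% in LYT013 and 11.5% in LYT014.

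LYT013 was the library most often at an extreme: it held the highest value of 16 members and the lowest of 9. Against the 4 control libraries whose Yap1 level followed the label, it lay above for 17 members, within for 7 and below for 12, and against the 3 such YAP-deleted libraries above for 22, within for 4 and below for 10. The 16 members with their highest value in LYT013 had a median longest transcript of 2.00 kb and the 9 with their lowest value there 5.27 kb. Over all genes LYT013 exceeded the median of the other 8 libraries by 0.50 log2-like units for 2202 genes under 1.5 kb and lay at −0.43 for 3300 genes over 5 kb, where the corresponding values of every other library stayed between −0.11 and 0.08. With a smooth trend in transcript length removed from each library, an adjustment chosen after seeing the data, LYT013 was the highest library for 19 members and the lowest for 6, of which 15 and 5 had been so before the adjustment; Myl9, Tagln, Tpm1 and Lmod1 are among the 15. LYT014 lay within the 4 controls for 24 members, below them for 11 and above them for 1, and within the 3 YAP-deleted libraries for 20. The part of library preparation in these values was not tested.

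**Figure D5:**
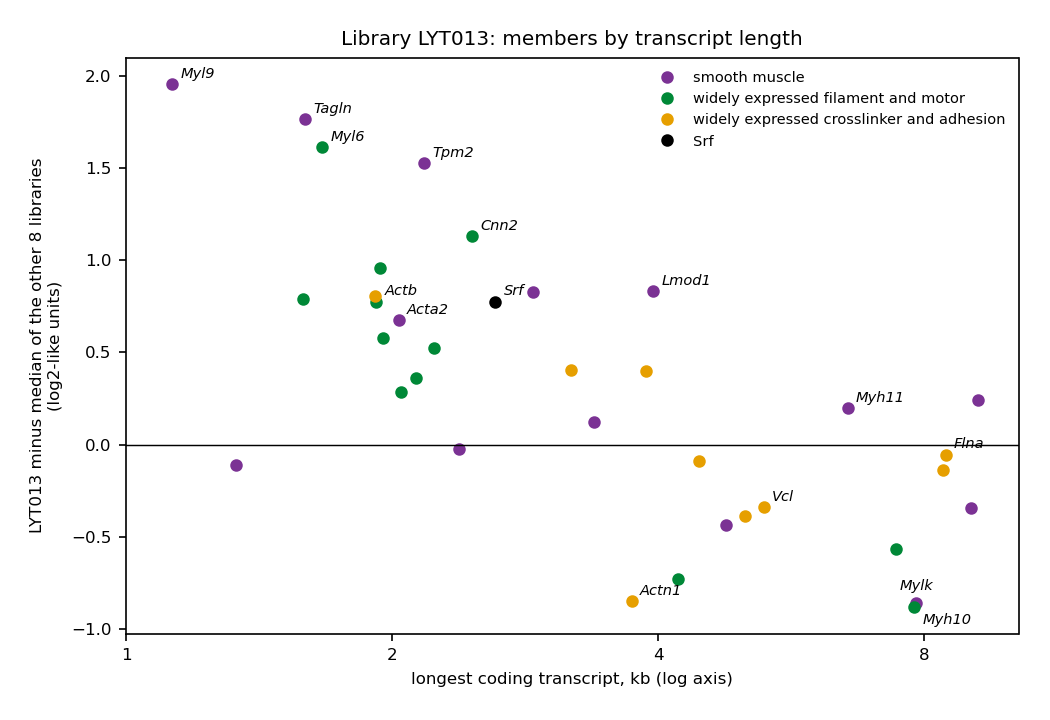
Value of each member in LYT013 minus the median of the other 8 libraries, in log2-like units, against the length of its longest coding transcript in kb (log axis), coloured by role. Myl9, Tagln and Myl6, with short transcripts, lie furthest above 0, and Mylk and Myh10, with long ones, furthest below; short Actg2 lies below 0 and long Myh11 and Synpo2 above it.

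The library codes form 2 ranges, 4 to 8 and 13 to 17, and the labels do not say what the codes stand for. Both ranges hold YAP-deleted and control libraries, so values within each could be taken from the 7 libraries. Codes 13 to 17 then hold LYT016 as the lone YAP-deleted library, which is assumed to vary like the others. The SE within a range pools the spread of all libraries of the fit, over both ranges. The errors of the 2 ranges are therefore not independent. Within codes 4 to 8 the differences were −1.42 ± 0.44 for Myl9, −1.27 ± 0.37 for Tagln, −0.89 ± 0.17 for Tpm1, −0.23 ± 0.13 for Vcl and −0.61 ± 0.18 for Filip1l. Within codes 13 to 17 they were −1.58 ± 0.54 for Myl9, −1.09 ± 0.45 for Tagln, −0.54 ± 0.21 for Tpm1, −0.39 ± 0.16 for Vcl and −0.66 ± 0.23 for Filip1l. The direction of each of these 5 was the same in both ranges of the 7 libraries. For Myl9, Tagln, Vcl and Filip1l it could not differ, since all YAP-deleted values of the 7 libraries lay below all control values. In the 9 libraries the direction was not the same for 3 of the 5. There, within codes 13 to 17, Myl9 differed by 0.37, Tagln by 0.24 and Tpm1 by 0.13. None passed limma's adjusted threshold within a range. Besides Tagln and Vcl, the members with 20% or more of their 31-base words shared with other genes, by rounded values, are Actg1 (40.2%), Cnn3 (32.0%), Tpm3 (27.0%), Actb (23.6%), Myl12a (22.9%) and Tpm4 (20.0%), so their levels are less certain than that of Acta2 (1.39%).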

How the data were processed

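Stellate cell RNA from 9 libraries was analysed from 1 table of the whole series. The authors deposited variance-stabilised log2-like values, 1 for each gene name in each library, and no source used here describes the step that made them. The tools bcl2fastq 2.20, kallisto 0.44.0 and sleuth are listed in the submitters' processing notes. The labels' protocols describe a poly-A and a ribosomal depletion preparation without saying which library received which. The column for LYT013 is headed LYT013.1, for a reason that no source used here states. Groups were taken from the sample titles and columns matched by library code.

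Inverting the transformation gave values that were whole within 0.1 for 100% of entries after division by a size factor, so counts per library were recovered; no count table was used, and the count model named in the design for that case was not run. Differences were tested on the deposited log2-like values with limma 3.58.1 in R 4.3.3 (linear model on group, empirical Bayes with a mean-variance trend, two-sided, Benjamini-Hochberg over all genes, threshold 0.05). A gene was tested if it exceeded the table's lowest value in 4 or more of 9 libraries, or in 3 or more of 7. On this scale differences of genes near 0 counts are compressed. Gene positions, transcript lengths and shared 31-base words came from GENCODE M21 on GRCm38, promoters from RefSeq GRCm38.p6. Voom on recovered counts, other filters, scalings, moderation, weights, covariates, subsets of libraries and each library left out were tried as alternatives, and the fit was tested on simulated data.

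The members, the role groups, the pathway and marker lists, the alternatives and the omission of LYT013 and LYT014 were chosen with earlier results of these data known. Every library is printed for 14 members set by name and for up to 4 members of each role group with the smallest p in either set of libraries, 26 members in all, and for Yap1; some pathway genes are not reported here. Mrtfa, Mrtfb, Myocd, Ldb3, Notch3, Itga7 and Rgs5 were named after their values were seen.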

Additional observations from a re-analysis of the deposited data

Results flagged for a closer look

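Each member was examined for a library far from the others of its labelled group. On log2-like values, the gap between an extreme library and its neighbour was taken as a share of the whole range of the group. Of 72 groups of values 4 stood out (5.56%), and chance alone marks about 1 in 20 groups. Mylk had 10438 normalised counts in LYT013, far below the other YAP-deleted libraries. Flnc had 94.4 in LYT008, above the other YAP-deleted libraries. In the control libraries, LYT005 stood above the others for Tpm3, at 4956 normalised counts, and for Pdlim5, at 5918. An unmarked group can still hold a distant library, as LYT013 was the highest of all 9 for Myl9, Tagln and Myl6.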

How the results depend on the processing

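Members past the threshold numbered 0 under every alternative run in the 9 libraries, and 0 under every one in the 7 libraries except with the cell cycle mean as a covariate, where Tpm1 made it 1, with 25 genes (0.145%) called lower and 11 higher in all. The smooth muscle median stayed below 0 under every alternative run, but shrank to −0.07 in the 9 libraries within codes 13 to 17, while the widely expressed median of the 9 libraries moved to −0.19 within codes 4 to 8. Of 623 values of 26 named members in the 9 libraries, 31 (13 members) had the opposite sign, and of 571 in the 7 libraries 22 (8 members) did; no member concerned had passed the test. In the 9 libraries, library weights gave Tpm2 −0.26, Myl6 −0.21, Myl12a −0.16, Cnn2 −0.18 and Srf −0.0018. Codes 4 to 8 gave Tpm2 −0.50, Myl6 −0.24, Myl12a −0.19 and Cnn2 −0.25, and codes 13 to 17 gave Myl9 0.37, Tagln 0.24, Tpm1 0.13, Lmod1 0.11 and Tpm4 0.076. Leaving out LYT013 and LYT014 gave Tpm2 −0.39, Actb −0.050, Myl6 −0.28, Myl12a −0.27 and Cnn2 −0.42, and adding them to the 7 libraries gave these genes 0.088, 0.18, 0.19, 0.057 and 0.056. With the length trend removed, Myh9 was at 0.0092 and Myl12a at −0.025 in the 9 libraries and Actg1 at −0.0082 in the 7. In the 7 libraries, Actg1 was at −0.081 with code range as a covariate and Actb at 0.014 with the cell cycle mean. Codes 4 to 8 gave Actb 0.15, and codes 13 to 17 gave Cnn1 0.058, Actg1 −0.36 and Srf −0.35. The cause of these turns was not tested. Leaving out each library in turn, the 9-library difference ran between −0.35 and 0.37 for Tpm2, −0.014 and 0.42 for Actb, −0.023 and 0.41 for Actg1, −0.26 and 0.41 for Myl6, −0.21 and 0.19 for Myl12a, −0.30 and 0.32 for Cnn2, and −0.031 and 0.36 for Srf. In the 7 libraries it ran between −0.30 and 0.055 for Cnn1, −0.26 and 0.21 for Actb, −0.21 and 0.30 for Actg1, and −0.11 and 0.20 for Srf. No paired analysis was possible because the replicate numbers are library codes that differ between the groups. With 3 against 4 libraries, and with Cnn1, Actg2 and Myocd near 0, small differences could not be resolved at this depth.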
